A study of Mus musculus with 4 samples.

Results

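The DEAD-box and DEAH-box RNA helicases are ATP-driven enzymes that unwind or remodel RNA and RNA-protein complexes. They were chosen as every row of the deposited footprint table whose gene symbol starts with Ddx or Dhx followed by a digit, leaving out Ddx4 and Ddx3y, which gave 49 of the 11598 genes in the table, 34 named Ddx and 15 named Dhx. The data were ribosome profiling (Ribo-seq) libraries, which count the short RNA fragments protected by ribosomes, from leptotene and zygotene spermatocytes sorted by flow cytometry from mouse testes at 12 days post partum (dpp). There were 2 control libraries, labelled wild type and called littermate controls in the study's text, and 2 Eef1g-cKO libraries, in which Stra8-GFPCre deleted a run of exons of a floxed Eef1g allele on a C57BL/6J background. Eef1g encodes the gamma subunit of translation elongation factor 1, and the comparison asked how its loss altered ribosome occupancy in early meiotic prophase. The Cre is active in male germ cells from type A1 spermatogonia onward, so the gene can be lost before meiosis begins, and somatic cells keep it. Values are FPKM, which scale the footprints of a gene to its length and to the library's total. They report footprints on all mRNA copies of a gene and not the amount of protein made. None was divided by the mRNA level, so a change in mRNA and one in ribosomes per mRNA cannot be told apart. The study also sequenced mRNA from such cells and calculated translational efficiency, neither of which is used here.

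RNA helicases of these families share a core of paired RecA-like domains that close around RNA and ATP. The choice by name also took in Ddx26b, now named Ints6l, which is a paralog of an Integrator subunit, and Ddx11, a DNA helicase. DEAD-box members pry apart short duplexes locally, whereas DEAH-box members travel along a strand and pull it from its partners. Between them they drive the steps of pre-mRNA splicing, ribosome assembly, mRNA export, translation initiation and mRNA decay, and several have long been studied in the testis, where the germline relies on heavy post-transcriptional control.

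Counted footprints numbered 2479504 and 1384282 in control replicates 1 and 2 and 223906 and 407979 in Eef1g-cKO replicates 1 and 2. Eef1g itself measured 27.6 and 26.8 FPKM in control replicates 1 and 2 and 0 and 6.26 FPKM in Eef1g-cKO replicates 1 and 2, from 107, 58, 0 and 4 reads. Both libraries labelled Eef1g-cKO lay far below both controls, as their label states, and the limma adjusted p was 0.0731 at a log2 fold change of -3.39, a size that depends on the pseudocount because 1 library was at 0. It passed the threshold in 5 of 15 alternatives, among them edgeR (adjusted p = 0.00780) and leaving out Eef1g-cKO replicate 1 (-1.96) or 2 (-4.82). All 9 markers of leptotene and zygotene spermatocytes that were listed had reads in every library, with a summed level of 1835 and 1467 FPKM in the controls and 3842 and 3338 FPKM in the Eef1g-cKO libraries and Sycp3 as the most abundant. Among these, 4 rose. Stra8 fell (260 and 252 FPKM against 126 and 96.0 FPKM, log2 fold change -1.21, limma adjusted p = 0.0379). Spo11, Prdm9, Sycp1 and Sycp2, at 0.0085, 0.28, 0.79 and 0.91, were not called. The 7 spermatogonial markers summed to 1192 and 1369 FPKM in the controls and 169 and 160.3 FPKM in the Eef1g-cKO libraries. Uchl1 was the most abundant of them, Gfra1 and Nanos3 were at 0 in Eef1g-cKO replicate 1, and 4 of the 7 fell in the limma fit. Sertoli cell markers, 7 of the 8 listed, summed to 558 and 131 FPKM in the controls against 128 and 83.4 FPKM, with Clu the most abundant and Gata4 at 0 in both Eef1g-cKO libraries. None of the Sertoli markers was called, and control replicate 1 alone stood high. The part of any of these markers in the helicase values was not tested, and in such bulk samples fewer cells of a type and less RNA per cell cannot be told apart.

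The helicases differ from each other in the box that gives the families their names, the second conserved motif, which binds the magnesium and ATP. The longest coding sequence of each gene was searched for the codons of motif I followed by those of motif II. This found a DEAD box in 24 helicases, a DEAH box in 8 and a variant box in 12. It found none of these in the remaining 5, Ddx1, Ddx11, Ddx24, Ddx26b and Dhx32. Motif II was sought only 60 to 180 codons after a fixed pattern of motif I, so a box outside these limits would be missed. The windows below surround the motif II codons, in capitals, of the helicases with the 4 lowest and the 2 highest log2 fold changes, and of Ddx5 and Ddx21 as the paralogs of those 2, each given 5′ to 3′ on the coding strand.
Dhx38: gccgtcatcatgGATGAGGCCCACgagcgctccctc
Dhx35: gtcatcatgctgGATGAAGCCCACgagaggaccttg
Dhx29: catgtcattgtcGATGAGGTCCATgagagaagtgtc
Ddx41: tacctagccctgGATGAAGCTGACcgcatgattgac
Ddx17: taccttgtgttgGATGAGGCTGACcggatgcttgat
Ddx5: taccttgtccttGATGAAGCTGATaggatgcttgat
Ddx50: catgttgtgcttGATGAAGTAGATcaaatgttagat
Ddx21: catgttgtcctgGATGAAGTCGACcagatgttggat
Dhx38 and Dhx35 carry DEAH codons, Ddx41, Ddx17 and Ddx5 carry DEAD codons, and Dhx29, Ddx50 and Ddx21 have a variant. In GRCm38 the windows lie within a coding exon at chr8:109556053-109556088 (minus strand) for Dhx38, chr2:158818263-158818298 (plus strand) for Dhx35 and chr13:55533044-55533079 (minus strand) for Ddx41. Those of Ddx17 at chr15:79538863-79538898, Ddx5 at chr11:106785181-106785216, Ddx50 at chr10:62640499-62640534 and Ddx21 at chr10:62591869-62591904 are on the minus strand and each within a coding exon. The Dhx29 window, on the plus strand, runs over the junction of exons 12 and 13 and spans chr13:112948338-112952820 with the intron between them.

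As a family the helicases were footprinted well above the typical gene. Their control means ran from 3.53 FPKM for Dhx57 to 289 FPKM for Ddx5, with a median of 37.6 FPKM against 10.4 FPKM over all genes tested. In the Eef1g-cKO libraries the means ran from 4.60 to 331 FPKM with a median of 37.7 FPKM, and no helicase was at 0 in any library. The order of the genes was similar in both genotypes, with a Spearman correlation of 0.93 across the 49 genes, which are not independent replicates. By FPKM, Ddx5 was the most abundant helicase in both genotypes. Ddx17 stood at rank 12 in the controls and rank 3 in the Eef1g-cKO libraries, and Dhx9 at rank 2 and rank 7. Levels and ranks compared between genes depend on the gene length used, which can far exceed the coding sequence. For Ddx17 it was 7071 bases against a longest coding sequence of 1959, and for Dhx9 4613 against 4155. Summed over all 49 genes, helicase footprints made up 10615 and 11811 RPM (reads per megaread counted in the library) in the controls and 10303 and 10194 RPM in the Eef1g-cKO libraries. Both Eef1g-cKO sums lay below both control sums, but without Dhx9 they were 9487 and 10577 against 9709 and 9447 RPM and overlapped. The 15 Dhx genes gave 2944 and 3254 RPM in the controls against 2206 and 2387, with no overlap of the groups. Dhx9 made up much of that gap, and the other 14 gave 1816 and 2021 against 1612 and 1640 RPM, still without overlap. The 34 Ddx genes gave 7671 and 8557 against 8097 and 7807 RPM, and their groups overlapped.

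Between the genotypes, 18 helicases had a higher mean log2 level in the Eef1g-cKO libraries (36.7%, against 40.9% of all genes tested). The other 31 had a lower one (63.3%, against 59.1%). Fold changes are differences of log2(FPKM + 1), fitted with limma over the 10475 genes that averaged 1 FPKM or more, and a gene was called when its Benjamini-Hochberg adjusted p was under 0.05 and it differed by more than 1 on the log2 scale. No helicase rose by this rule, where 2.87% of all genes tested did, and 2 of 49 (4.08%), Dhx38 and Dhx29, fell, where 4.97% of all genes did. At an unadjusted p under 0.05 with the same fold limit, 0 helicases were higher against 7.32% of all genes, and 5 (10.2%) were lower against 16.3%. Applied to whole reads recovered from the table, edgeR called 0 helicases increased (8.75% of all genes it tested) and 5 decreased (11.2%), and DESeq2 called 0 increased (5.94%) and 2 decreased (5.34%). For 10 helicases (20.4%) both Eef1g-cKO libraries lay above both controls, against 24.6% of all genes, and for 21 (42.9%) both lay below, against 37.7%. Each of these shares called as decreased lay under that of all genes, while the share with both Eef1g-cKO libraries below the controls lay above it. Other settings called 4 helicases decreased, each time a share above that of all genes. These were a pseudocount of 5, a minimum mean of 5 FPKM, replicate number as a block and removal of the trend with base composition. Values this near the background are no result about the family as such. The limma count of decreased helicases was 0 without control replicate 1 and 0 without control replicate 2, fits in which none of the 10475 genes was called, and it was 5 without Eef1g-cKO replicate 2, where 1432 of the 10475 genes were called decreased. The median log2 fold change of the helicases was -0.11, compared with -0.23 over all genes tested, and 28 of the 49 lay above that all-gene median. This order was not stable. The helicases lay below all genes with a minimum mean of 5 FPKM (-0.16 against -0.079) and with thinning (-0.18 against -0.16). They also did so without control replicate 1 (-0.28 against -0.25). The median of all genes tested lay below 0. Centring each library on its median, which shifts every log2 fold change up by 0.21, turned the median of the helicases to 0.10. Centring also ended both decreased calls (0 helicases, 3.66% of all genes) and made Ddx17 an increased call (1 helicase, 4.97% of all genes). With centring Dhx38 was at -1.34 (limma adjusted p = 0.0552) and Dhx29 at -1.18 (limma adjusted p = 0.0597), both still past the fold limit. Because the whole distribution was displaced, changes are also given relative to the median of all genes.

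**Figure D1:**
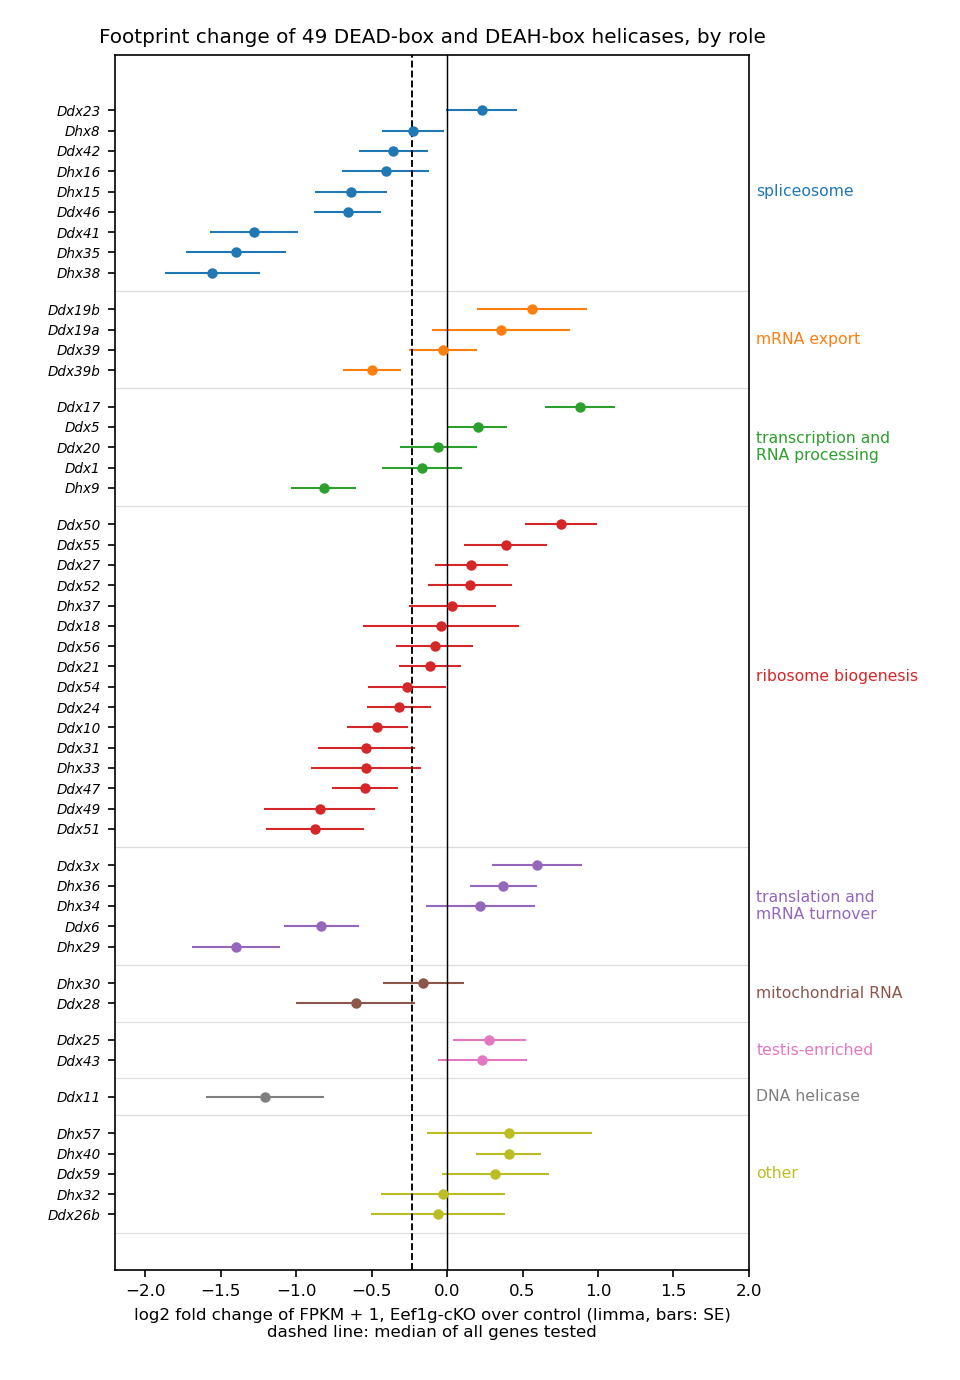
Log2 fold change of log2(FPKM + 1), Eef1g-cKO over control, for each of the 49 helicases, grouped by role; points are limma estimates, bars their standard errors, and the dashed line is the median of all genes tested (-0.23). In the spliceosome group 8 of 9 points lie below 0, and the lowest are Dhx38 at -1.56, Dhx35 at -1.40 and Ddx41 at -1.28.

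The helicases of the spliceosome had the lowest median of the role groups with more than 2 members. The group holds only genes named Ddx or Dhx, which leaves out Snrnp200, described below. Of 9, 8 were lower in the Eef1g-cKO libraries (88.9%, against 59.1% of all genes). For 7, both Eef1g-cKO libraries lay below both controls (77.8%, against 37.7%). By the adjusted rule 1 of 9 fell (11.1%, against 4.97%). At an unadjusted p under 0.05 with the same fold limit 3 were lower (33.3%, against 16.3%). The median log2 fold change was -0.64, staying below 0 when libraries were centred (-0.42) and when the trend with base composition was removed (-0.91). Their summed footprints were 2188 and 2417 RPM in the controls and 1657 and 1650 in the Eef1g-cKO libraries. Dhx38, the mouse PRP16, remodels the spliceosome between the first and the second step of splicing. It measured 39.2 and 36.0 FPKM in control replicates 1 and 2 and 9.59 and 15.2 FPKM in Eef1g-cKO replicates 1 and 2. Both Eef1g-cKO values lay below both controls, at 12.4 ± 3.97 against 37.6 ± 2.22 FPKM (mean ± SD, n = 2 each), 0.330 of the control mean. Its log2 fold change was -1.56 (SE 0.31, limma adjusted p = 0.0456), or -1.32 relative to the median of all genes, past the threshold. Dhx35, a DEAH-box component of spliceosomes, measured 21.2 and 24.9 FPKM in control replicates 1 and 2 and 6.75 and 9.63 FPKM in Eef1g-cKO replicates 1 and 2. The groups did not overlap there either, although its Eef1g-cKO values rest on 5 and 13 reads. Its log2 fold change was -1.40 (SE 0.33, limma adjusted p = 0.0576), or -1.17 relative to the median of all genes, short of the threshold here and past it in 5 of 15 alternatives, edgeR among them. Ddx41, a DEAD-box protein found in the catalytic spliceosome and picked out after its values were seen, measured 46.6 and 68.8 FPKM in control replicates 1 and 2 and 20.3 and 25.6 FPKM in Eef1g-cKO replicates 1 and 2. Again both Eef1g-cKO libraries were the low ones, and the log2 fold change was -1.28 (SE 0.29, limma adjusted p = 0.0542), or -1.05 relative to the median of all genes, likewise called in 5 of 15 alternatives. Antisense Gm46416 covers 17.4% of its exonic bases, and whether reads were counted by strand is not given in the sources used here. Ddx23 and Ddx42, the spliceosomal members with the highest mean over all 4 libraries, were not called. Ddx23, the PRP28 helicase that lets U6 replace U1 at the 5′ splice site, measured 89.4 and 123 FPKM in control replicates 1 and 2 and 124 and 123 FPKM in Eef1g-cKO replicates 1 and 2, and control replicate 2 lay within the Eef1g-cKO range. Its log2 fold change was 0.23 (SE 0.23, limma adjusted p = 0.535), or 0.46 relative to the median of all genes. Ddx42, a DEAD-box partner of the U2 snRNP, measured 95.3 and 98.5 FPKM in control replicates 1 and 2 and 65.7 and 86.8 FPKM in Eef1g-cKO replicates 1 and 2, so that both Eef1g-cKO libraries were lower without reaching a call. There the log2 fold change was -0.36 (SE 0.23, limma adjusted p = 0.330), or -0.12 relative to the median of all genes. Without Eef1g-cKO replicate 1 that of Ddx42 was -0.16, and without Eef1g-cKO replicate 2 it was -0.55. The call of Dhx38 did not survive the removal of either control library: without control replicate 1 its log2 fold change was -1.50 and the adjusted p 0.288, and without control replicate 2 they were -1.62 and 0.323, in the fits that called no gene. In all it was lost in 8 of 15 alternatives, among them a pseudocount of 0.1 (adjusted p = 0.0635), no filter (0.0545), no trended prior (0.0845) and thinning (0.117). Spermatogonial markers were lower in the same libraries as these helicases, and their part in the difference was not tested.

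Among the 4 helicases of mRNA export, none was called. Ddx39b (UAP56), which helps load export factors on spliced mRNA, was the more abundant at 252 and 259.7 FPKM in control replicates 1 and 2 and 191 and 171 FPKM in Eef1g-cKO replicates 1 and 2. Both Eef1g-cKO libraries lay below both controls, and the log2 fold change was -0.50 (SE 0.19, limma adjusted p = 0.150), or -0.27 relative to the median of all genes. Its close relative Ddx39, also called Ddx39a, measured 132 and 179.8 FPKM in control replicates 1 and 2 and 148 and 155 FPKM in Eef1g-cKO replicates 1 and 2, and the groups overlapped. Antisense Adgre5 covers 17.4% of its exonic bases, with the same limit as for Ddx41. The log2 fold change was -0.026 (SE 0.23, limma adjusted p = 0.947), or 0.21 relative to the median of all genes, and this sign turned with centring (0.19). Ddx19a and Ddx19b, which release export factors at the nuclear pore, were low in FPKM. Their gene lengths were 2575 and 6750 bases against longest coding sequences of 1437 and 1485, so FPKM does not order the pair. Ddx19a measured 13.0 and 8.98 FPKM in control replicates 1 and 2 and 20.8 and 9.52 FPKM in Eef1g-cKO replicates 1 and 2, with overlapping groups, and Ddx19b 7.11 and 6.53 FPKM in control replicates 1 and 2 and 9.26 and 12.0 FPKM in Eef1g-cKO replicates 1 and 2, with both Eef1g-cKO libraries the higher ones. Their log2 fold changes were 0.36 (SE 0.46, limma adjusted p = 0.625) and 0.56 (SE 0.36, limma adjusted p = 0.338), and without Eef1g-cKO replicate 1 that of Ddx19a was -0.17. The pair cannot be separated with confidence, because 57.6% of the 28-base stretches of the Ddx19a coding sequence and 55.7% of those of Ddx19b occur in the other gene, and how such reads were assigned is not given in the sources used here.

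**Figure D2:**
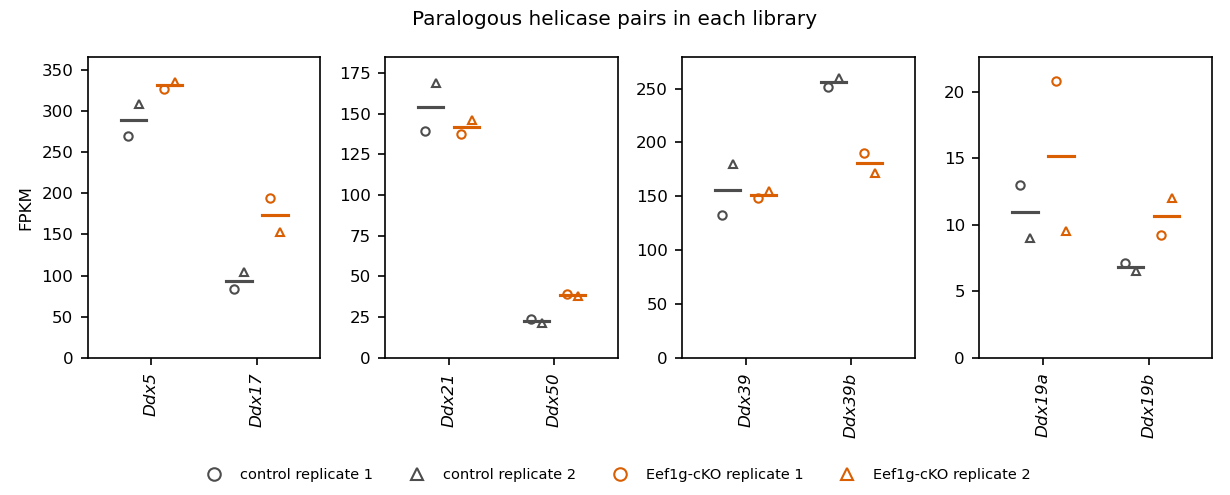
FPKM of 4 pairs of related helicases in the 2 control and 2 Eef1g-cKO libraries; symbols are libraries, bars group means, and each panel starts at 0. Ddx17 and Ddx50 are higher in both Eef1g-cKO libraries than in both controls, while Ddx39b is lower in both.

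Helicases that act in transcription and RNA processing lay on both sides of 0, where the median of 5 members was -0.060 and turned to 0.15 with centring. Ddx17 (p72) and Ddx5 (p68) are coregulators of transcription and splicing that can form heterodimers and also assist microRNA processing. Ddx17 measured 83.3 and 104 FPKM in control replicates 1 and 2 and 194 and 153 FPKM in Eef1g-cKO replicates 1 and 2. Each Eef1g-cKO library exceeded both controls, and the group means were 173 ± 29.3 and 93.5 ± 14.4 FPKM (mean ± SD, n = 2 each), 1.85 times the control. The log2 fold change was 0.88 (SE 0.23, limma adjusted p = 0.0700), or 1.11 relative to the median of all genes, the largest increase of any helicase in this fit, which passed the threshold only with libraries centred (1.09, adjusted p = 0.0439; 0.00166 to 0.300 over all alternatives). Ddx5 measured 269 and 308 FPKM in control replicates 1 and 2 and 327 and 336 FPKM in Eef1g-cKO replicates 1 and 2. Here too both Eef1g-cKO values were the higher ones, but closely so, and the log2 fold change was 0.20 (SE 0.20, limma adjusted p = 0.521), or 0.43 relative to the median of all genes, with the sign turned when the trend with base composition was removed (-0.25). No 28-base stretch of Ddx17 occurs in another annotated gene, whereas 64.1% of those of Ddx5 do, mostly in Gm12183. Whether the change of Ddx17 differed from that of Ddx5 was not tested. Dhx9 (RNA helicase A), which resolves RNA structures and RNA-DNA hybrids, went the other way with 244 and 267 FPKM in control replicates 1 and 2 and 129 and 162 FPKM in Eef1g-cKO replicates 1 and 2. Both Eef1g-cKO libraries lay below both controls, with means of 145 ± 23.5 and 256 ± 16.3 FPKM (mean ± SD, n = 2 each). For Dhx9 the log2 fold change was -0.82 (SE 0.21, limma adjusted p = 0.0684), or -0.59 relative to the median of all genes. It had the most reads of any helicase in both controls, with 2795 and 1708 in the controls and 133 and 305 in the Eef1g-cKO libraries.

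Ribosome biogenesis is served by the largest group, 16 helicases. No member was called by the adjusted rule, or at an unadjusted p under 0.05 with the same fold limit. Of all genes, 7.32% were higher and 16.3% lower at that unadjusted limit. Ddx47, Ddx50 and Ddx51 had an unadjusted limma p under 0.05 but stayed within the fold limit. In this group 11 were lower (68.8%, against 59.1% of all genes) and 5 higher. Both Eef1g-cKO libraries lay below both controls for 8 (50%, against 37.7%) and above them for 2 (12.5%, against 24.6%). The median of -0.19 became 0.026 with centring. Ddx10, which acts on the small subunit precursor, measured 227 and 233 FPKM in control replicates 1 and 2 and 182 and 153 FPKM in Eef1g-cKO replicates 1 and 2. Both Eef1g-cKO libraries were lower, and the log2 fold change was -0.46 (SE 0.20, limma adjusted p = 0.183), or -0.23 relative to the median of all genes. Once the trend with base composition was removed it was -0.90 (adjusted p = 0.0413). Ddx21 and Ddx50 are nucleolar paralogs, Gu-alpha and Gu-beta, that lie side by side on chromosome 10. Ddx21 measured 139 and 169 FPKM in control replicates 1 and 2 and 137 and 146 FPKM in Eef1g-cKO replicates 1 and 2, with overlapping groups, and the log2 fold change was -0.11 (SE 0.21, limma adjusted p = 0.742), or 0.12 relative to the median of all genes, a sign that turned with centring (0.10). Ddx50 was several times less abundant and measured 23.8 and 21.3 FPKM in control replicates 1 and 2 and 39.2 and 38.1 FPKM in Eef1g-cKO replicates 1 and 2. The Eef1g-cKO values were close to each other and both above the controls, at 38.7 ± 0.751 against 22.6 ± 1.76 FPKM (mean ± SD, n = 2 each). For Ddx50 the log2 fold change was 0.75 (SE 0.24, limma adjusted p = 0.102), or 0.99 relative to the median of all genes, and only 0.30 (adjusted p = 0.433) with the composition trend removed. Of the Ddx50 coding sequence, 42.1% of the 28-base stretches occur in another gene, mainly Gm8228, so its reads may be shared. The remaining members ranged from -0.88 for Ddx51 to 0.39 for Ddx55 in log2 fold change.

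Helicases of translation and mRNA turnover spread widely. Of 5, 3 were higher (60%, against 40.9% of all genes) and 2 lower (40%, against 59.1%). By the adjusted rule 1 of the 5 fell (20%, against 4.97%). Their median was 0.22, or -0.14 once the trend with base composition was removed. Dhx29 binds the small ribosomal subunit and helps it scan structured leaders of mRNA. It measured 25.5 and 25.6 FPKM in control replicates 1 and 2 and 9.81 and 8.37 FPKM in Eef1g-cKO replicates 1 and 2. The controls were nearly equal and both Eef1g-cKO values lay far below them, at 9.09 ± 1.01 against 25.5 ± 0.0502 FPKM (mean ± SD, n = 2 each), 0.356 of the control mean, from 9 and 14 reads. Its log2 fold change was -1.40 (SE 0.29, limma adjusted p = 0.0476), or -1.17 relative to the median of all genes, past the threshold. Without control replicate 1 the value was -1.40 with an adjusted p of 0.251 and without control replicate 2 it was -1.40 with 0.295, again with no gene called. This call was lost in 7 of 15 alternatives, also with a pseudocount of 0.1 (adjusted p = 0.0626), no filter (0.0554), centring (0.0597), no trended prior (0.0779) and thinning (0.132). Ddx3x, an X-linked initiation helicase whose Y-linked relative was left out of the list, measured 63.3 and 37.3 FPKM in control replicates 1 and 2 and 74.3 and 74.0 FPKM in Eef1g-cKO replicates 1 and 2. Control replicate 2 was the low library, and the log2 fold change was 0.60 (SE 0.30, limma adjusted p = 0.234), or 0.83 relative to the median of all genes, with 0.23 when that library was left out. Dhx36, which unfolds G-quadruplexes, measured 37.8 and 44.3 FPKM in control replicates 1 and 2 and 54.8 and 51.7 FPKM in Eef1g-cKO replicates 1 and 2. Both Eef1g-cKO libraries were higher, and the log2 fold change was 0.37 (SE 0.22, limma adjusted p = 0.304), or 0.60 relative to the median of all genes, with the sign turned by removal of the composition trend (-0.14). Ddx6, the decapping activator and translational repressor of P-bodies, was named after its values were seen and measured 32.1 and 34.8 FPKM in control replicates 1 and 2 and 18.4 and 18.2 FPKM in Eef1g-cKO replicates 1 and 2. Both Eef1g-cKO libraries gave close to the same low value, and the log2 fold change was -0.83 (SE 0.25, limma adjusted p = 0.0887), or -0.60 relative to the median of all genes. Gm13410 shares 33.8% of the 28-base stretches of its coding sequence.

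**Figure D3:**
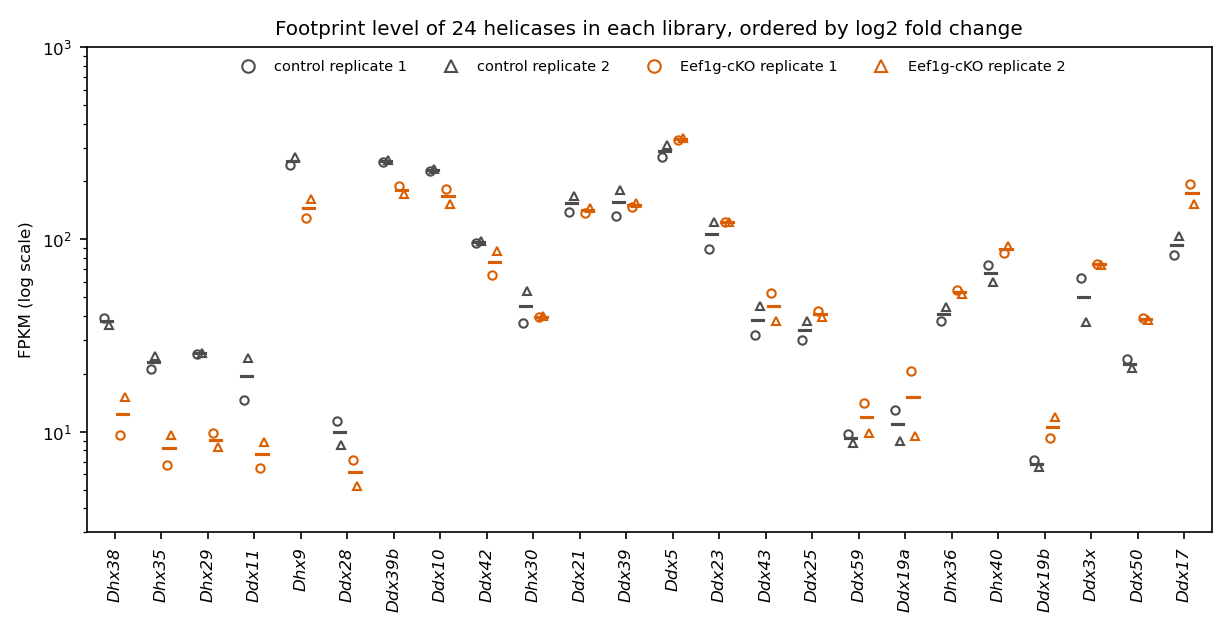
FPKM on a log scale of 24 helicases in the 2 control and 2 Eef1g-cKO libraries, ordered from the lowest to the highest log2 fold change; symbols are libraries and bars group means. Dhx38, Dhx35 and Dhx29 at the left lie below 16 FPKM in both Eef1g-cKO libraries and above 21 FPKM in both controls, and Ddx17 at the right lies above 150 FPKM in both Eef1g-cKO libraries and below 104 FPKM in both controls.

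Smaller groups gave no call by the adjusted rule. The germ-cell helicases Ddx25 (GRTH), needed later for spermatid development, and Ddx43 (HAGE) were both slightly higher. Ddx25 measured 30.1 and 37.5 FPKM in control replicates 1 and 2 and 42.7 and 39.5 FPKM in Eef1g-cKO replicates 1 and 2, without overlap, and Ddx43 31.8 and 44.8 FPKM in control replicates 1 and 2 and 52.6 and 37.7 FPKM in Eef1g-cKO replicates 1 and 2, with overlap. Their log2 fold changes were 0.28 (SE 0.24, limma adjusted p = 0.464) and 0.23 (SE 0.29, limma adjusted p = 0.619), and that of Ddx43 turned to -0.23 without the composition trend and to -0.0081 without control replicate 1. An antisense transcript covers 15.9% of the exonic bases of Ddx43. Of the mitochondrial helicases, Dhx30 measured 36.6 and 53.9 FPKM in control replicates 1 and 2 and 39.7 and 39.8 FPKM in Eef1g-cKO replicates 1 and 2 and Ddx28 11.4 and 8.49 FPKM in control replicates 1 and 2 and 7.16 and 5.24 FPKM in Eef1g-cKO replicates 1 and 2. Dhx30 overlapped between the genotypes and Ddx28, at 3 and 4 reads in the Eef1g-cKO libraries, was lower in both. Their log2 fold changes were -0.16 (SE 0.27, limma adjusted p = 0.720), turning to 0.056 with centring, and -0.61 (SE 0.39, limma adjusted p = 0.339). Ddx11 was grouped apart as a DNA helicase of the XPD family that acts in sister chromatid cohesion. It measured 14.6 and 24.2 FPKM in control replicates 1 and 2 and 6.46 and 8.86 FPKM in Eef1g-cKO replicates 1 and 2. Both Eef1g-cKO libraries were lower, and the log2 fold change was -1.21 (SE 0.39, limma adjusted p = 0.104), or -0.98 relative to the median of all genes, which passed the threshold without Eef1g-cKO replicate 2 (-1.41) and in edgeR (-1.19, adjusted p = 0.0394; 0.0394 to 0.444 over all alternatives). Among 5 less characterised members, Dhx40 measured 73.5 and 60.1 FPKM in control replicates 1 and 2 and 85.1 and 92.1 FPKM in Eef1g-cKO replicates 1 and 2 and Ddx59 9.77 and 8.75 FPKM in control replicates 1 and 2 and 14.0 and 9.90 FPKM in Eef1g-cKO replicates 1 and 2. Both were higher without overlap, and their limma adjusted p-values were 0.254 at a log2 fold change of 0.41, which turned to -0.068 without the composition trend, and 0.571 at 0.32. The Ddx59 value was 0.089 without Eef1g-cKO replicate 1 and rests on 7 and 9 reads in the Eef1g-cKO libraries.

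Base composition went along with the fold changes, and removing its trend changed which helicases were called. Across 10115 genes, the log2 fold change was lower where G or C at the third codon position was more frequent, with a Spearman correlation of -0.30, and across the 49 helicases it was -0.21. With the trend of each library on coding GC content removed these became -0.058 and 0.22, so among the helicases the relation turned. Genes within these libraries are not independent replicates. The helicases had a median of 55.4% G or C at the third position against 60.2% over all genes tested, from 34.6% in Ddx50 to 74.1% in Dhx34. The 24 richest in G or C had a median log2 fold change of -0.24 and the other 25 had -0.059. With that trend removed, a setting chosen after seeing the data, 0 helicases were called increased (3.26% of genes) and 4 decreased (5.94%), namely Dhx29 (-1.62), Dhx9 (-1.20), Ddx6 (-1.18) and Dhx15 (-1.09), the last of which was named after its values were seen. Dhx38, at 71.1% among the richest, was then at -1.30 and just outside the threshold, with a limma adjusted p of 0.0502 and a range of 0.00205 to 0.323 over all alternatives. Dhx9 and Dhx15, at 34.8% and 38.7%, were low for genes so poor in G and C, and Dhx29, at 52.7%, was called both with and without the trend, its adjusted p lying between 0.00556 and 0.295 over the alternatives.

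**Figure D4:**
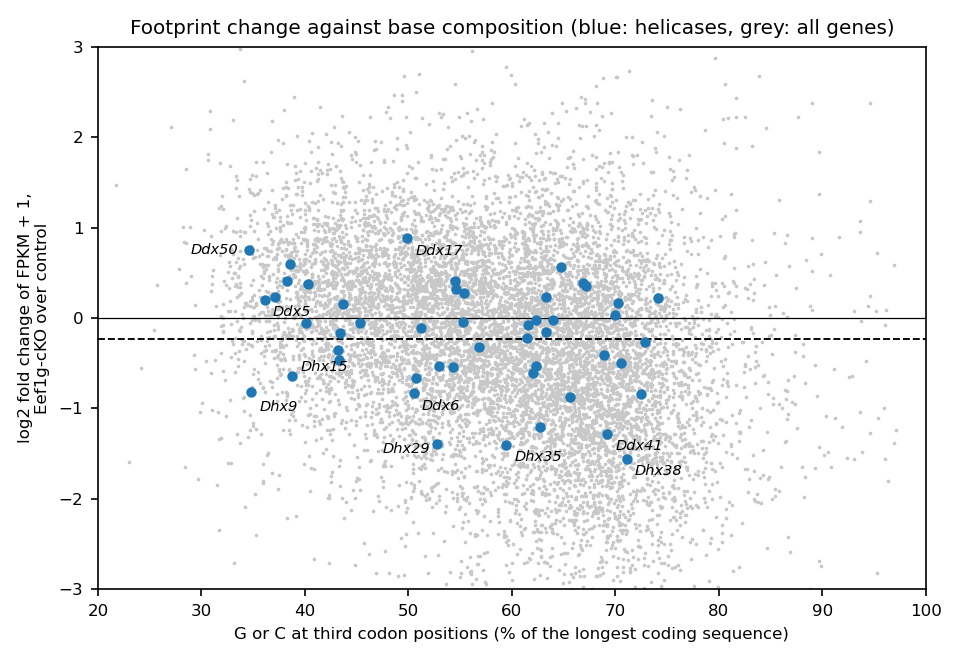
Log2 fold change (Eef1g-cKO over control, log2 of FPKM + 1) against the percentage of G or C at the third codon position of the longest coding sequence, for 10115 genes in grey, 135 of them outside the drawn range, and the 49 helicases in blue. The dashed line is the median of all genes tested; Dhx38 and Ddx41 lie low among GC-rich genes and Dhx9 and Dhx15 low among GC-poor ones.

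The relatives of these helicases under other names, and the proteins that stimulate them, set the family beside its pathway. Of 23 symbols of other RNA helicases reported here, 22 were in the table and 20 were tested, of which 0 rose (2.87% of all genes did) and 2 fell (10%, against 4.97%). Mov10, whose product acts in mRNA decay and represses retrotransposons, measured 29.7 and 31.4 FPKM in control replicates 1 and 2 and 3.55 and 1.95 FPKM in Eef1g-cKO replicates 1 and 2, from only 3 and 3 reads in the latter. Both Eef1g-cKO libraries were far below the controls, and its log2 fold change was -3.11 (SE 0.38, limma adjusted p = 0.0260), or -2.87 relative to the median of all genes. Its germline paralog Mov10l1, the piRNA precursor helicase, measured 195 and 211 FPKM in control replicates 1 and 2 and 292 and 288 FPKM in Eef1g-cKO replicates 1 and 2, with both Eef1g-cKO libraries higher, and its log2 fold change was 0.52 (SE 0.19, limma adjusted p = 0.137), or 0.75 relative to the median of all genes. Tdrd9, a DEAH-type piRNA helicase outside the Dhx naming, measured 89.7 and 92.4 FPKM in control replicates 1 and 2 and 37.1 and 47.9 FPKM in Eef1g-cKO replicates 1 and 2. Both Eef1g-cKO libraries were low, and its log2 fold change was -1.09 (SE 0.23, limma adjusted p = 0.0478), or -0.86 relative to the median of all genes. Both calls were lost, like every other call of the fit, without control replicate 1 (Mov10 -3.14, Tdrd9 -1.11) and without control replicate 2 (Mov10 -3.07, Tdrd9 -1.07), where the values themselves changed little. That of Mov10 was lost in 5 of 15 alternatives, and that of Tdrd9 in 9, including centring (-0.88) and the fit without Eef1g-cKO replicate 1 (-0.91). Snrnp200, the U5 helicase BRR2 that unwinds U4 from U6, measured 173 and 179 FPKM in control replicates 1 and 2 and 148 and 169 FPKM in Eef1g-cKO replicates 1 and 2, slightly lower in both Eef1g-cKO libraries, and its log2 fold change was -0.15 (SE 0.20, limma adjusted p = 0.632), or 0.083 relative to the median of all genes, a sign that turned with centring (0.064). Of 35 partners such as the MIF4G and G-patch proteins, 0 rose and 0 fell, and at an unadjusted p under 0.05 with the same fold limit 1 was higher (7.32% of all genes were) and 1 lower (16.3%). Magoh, a core protein of the exon junction complex around the DEAD-box helicase Eif4a3, measured 471 and 591 FPKM in control replicates 1 and 2 and 297 and 305 FPKM in Eef1g-cKO replicates 1 and 2, lower in both Eef1g-cKO libraries, and its log2 fold change was -0.81 (SE 0.22, limma adjusted p = 0.0721), or -0.58 relative to the median of all genes, with a call only once the composition trend was removed (-1.30, adjusted p = 0.0296). Eif4a3 itself, named after its values were seen, measured 193 and 257 FPKM in control replicates 1 and 2 and 128 and 88.8 FPKM in Eef1g-cKO replicates 1 and 2, also lower in both, and its log2 fold change was -1.05 (SE 0.27, limma adjusted p = 0.0664), or -0.82 relative to the median of all genes. It passed the threshold in 3 of 15 alternatives, namely edgeR (adjusted p = 0.00693), DESeq2 (0.0233) and leaving out Eef1g-cKO replicate 1 (-1.32).

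With 2 libraries per genotype, the smallest two-sided p of an exact permutation test is 0.333, so every call rests on variance shared across genes by limma, and none was kept without either control library. Depth limits the low members most: the median helicase had 260 and 205 reads in the controls but 25 and 39 in the Eef1g-cKO libraries, and 12 helicases had under 10 reads in at least 1 of the latter.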

How the data were processed

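The authors deposited a table with FPKM per gene and library and, beside it, a signal column per library of gene counts divided by a size factor, with gene length and columns of their own DESeq2-named comparison, which were not used. The submitters' processing notes name cutadapt, Bowtie and STAR and the builds mm10 and hg38; their roles, the counting program and the annotation are not given in the sources used here, and the methods name RiboMiner. Dividing that signal by its smallest step in a library gave back whole reads for 100% of values (tolerance 1e-06). Members, lists and alternatives were chosen with earlier results of these data known.

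Log2(FPKM + 1) of genes averaging 1 FPKM or more was fitted on genotype with limma 3.58.1 (trended prior, Benjamini-Hochberg adjustment over all genes tested) in R 4.3.3; this scale understates changes of low genes. All 49 helicases passed that filter. Recovered reads were also tested with edgeR 4.0.16 (quasi-likelihood) and DESeq2 1.42.0. The code was tested on simulated data. Other tables were made with Python 3.11.15, pandas 2.3.3, numpy 2.4.6 and scipy 1.17.1. P-values measure the spread between libraries, stated to be independent biological replicates; libraries of 1 genotype were further apart than sampling noise (chi-square per degree of freedom 13.2 for control, 1.96 for Eef1g-cKO).

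Coding sequences came from GENCODE M21 (GRCm38, which mm10 denotes), and motif II was sought 60 to 180 codons after motif I; all 49 helicases matched, 2 of them by an older symbol. Named helicases were those passing the adjusted call, the 2 most abundant of each role group, both genes of 4 paralog pairs, and the 3 largest increases and decreases among those with at least 10 Eef1g-cKO reads; of other helicases and partners, those called and the 3 most abundant; and Eef1g. Role groups followed general knowledge. One gene of the other-helicase list is not reported here, and the counts of that list leave it out. Alternatives were pseudocounts of 0.1 and 5, no filter or a mean of 5 FPKM, median centring, no trended prior, replicate number as a block, leaving out each library, edgeR, DESeq2, thinning to 223906 reads and, added after seeing the data, removal of a loess trend on coding GC content.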

Additional observations from a re-analysis of the deposited data

How the results depend on the processing

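No helicase was called increased under any alternative apart from centring (1, Ddx17). The count of decreased helicases was 2 in the main setting, where 521 of 10475 genes were called decreased. It was 0 with a pseudocount of 0.1 (47 genes), with no filter (373 of 11598) and with centring (383), and 0 without a trended prior and with thinning, fits that called no gene. It was 4 with a pseudocount of 5 (706 genes), with a minimum mean of 5 FPKM (576 of 7080) and with the composition trend removed (601 of 10115), 5 with edgeR (904 of 8056) and 2 with DESeq2 (451 of 8450). Leaving out 1 library gave 0 to 5, the lone library of a genotype being assumed to vary like the other genotype. Without either control library no gene was called, while without Eef1g-cKO replicate 1 there were 321 increased and 1086 decreased genes and without Eef1g-cKO replicate 2 there were 537 and 1432; the cause was not tested.

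The median of the helicases, -0.11, was -0.16 with a minimum mean of 5 FPKM (47 helicases), 0.10 with centring, -0.035 with edgeR, -0.051 with DESeq2, -0.18 with thinning and -0.25 without the composition trend, and -0.28 to -0.083 with 1 library left out.

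Deviations of same-numbered libraries had a correlation of -0.008 across genes. With a median of 5 and 8 reads per gene in Eef1g-cKO replicates 1 and 2, this cannot tell whether they were paired. The sample titles do not state it. With the replicate block 4 helicases were called decreased (Dhx38, Dhx29, Ddx41 and Dhx35) in place of 2, and 822 of all genes in place of 521.

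Over the 34 named genes, 435 of the values under alternatives kept direction and side of the threshold. Of the rest, 29 lost a call, 25 gained a call and 21 changed sign. The genes that changed sign had main log2 fold changes from -0.16 (Dhx30) to 0.41 (Dhx40). With centring the sign changed for Ddx21 (0.10), Ddx39 (0.19), Dhx30 (0.056) and Snrnp200 (0.064). Without the composition trend it changed for Ddx43 (-0.23), Ddx5 (-0.25), Dhx30 (0.062), Dhx36 (-0.14) and Dhx40 (-0.068). Ddx39 also changed with edgeR (0.046), DESeq2 (0.027) and thinning (0.060), and Dhx30 with thinning (0.029). With 1 library left out, values ran from -0.17 to 0.88 for Ddx19a, -0.25 to 0.027 for Ddx21, -0.0020 to 0.46 for Ddx23, -0.25 to 0.19 for Ddx39, -0.0081 to 0.48 for Ddx43 and -0.43 to 0.12 for Dhx30. The cause of these changes was not tested. Depth limits the Eef1g-cKO values, where 3 reads on a gene of 1 kilobase equal 13.4 and 7.35 FPKM in replicates 1 and 2, for counting error only.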

Other observations

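Marker lists of the remaining cell types gave these levels. Of 7 listed pachytene markers 3 were analysed here, summing to 190.3 and 139 FPKM in the controls and 249.9 and 304 FPKM in the Eef1g-cKO libraries, nearly all of it Hspa2. Of 6 spermatid markers 3 were analysed, with sums of 7.38, 55.3, 0 and 15.1 FPKM in the same order of libraries, Tnp1 being the most abundant and Prm2 at 0 in every library but control replicate 2. The 3 Leydig cell markers analysed of 6 summed to 3.10, 5.82, 2.23 and 1.22 FPKM, with Cyp11a1 the most abundant and at 0 in every library but control replicate 2, and the 2 peritubular markers of 4 to 34.1, 19.4, 5.21 and 17.7 FPKM, with Acta2 the most abundant. None of 5 macrophage and 4 red blood cell markers was analysed here.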
